A study of Mus musculus with 4 samples.

Results

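The barrier lipid and ceramide genes described here are 35 named genes, taken by exact gene symbol from 4 count tables of 20611 genes each. All 35 were found. They were read as 13 ceramide synthesis genes, 6 very long chain fatty acid genes, 8 lipoxygenase path genes and 8 envelope crosslinking genes. Male BALB/c mice, 8 to 9 weeks of age, all had 5% imiquimod (IMQ) cream at 47 mg per day on days 1 to 5, and their back skin was taken on day 6. Imiquimod activates a Toll-like receptor and brings on a psoriasis-like inflammation in mouse skin. The IMQ+IDMF group (1 library) was given a lotion with isosorbide di-(methyl fumarate), known as a dimethyl fumarate pro-drug, about 1 h after the cream. The IMQ+VEH group (2 libraries, replicates 1 and 2) was given the vehicle lotion at that time, and the IMQ group (1 library) had the cream alone. Skin without imiquimod was not analysed here, and every value below is from imiquimod-treated skin.

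The water barrier of skin lies in the cornified layer, where dead keratinocytes are embedded in sheets of ceramides, fatty acids and cholesterol. Keratinocytes join a sphingoid base to a very long fatty acid to make ceramide, pack the lipid into lamellar granules and release it below the cornified layer. Part of the ceramide carries linoleic acid, which lipoxygenases oxidise so that the lipid can be attached to a protein shell, the cornified envelope. Transglutaminases crosslink that shell, and proteases and desmosomal proteins complete it. Loss of many of these genes causes ichthyosis in humans.

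Members lie on 15 chromosomes of GRCm38, the build named in the submitters' processing notes. Aloxe3 (chromosome 11, 69125896 to 69149115) and Alox12b (chromosome 11, 69156989 to 69169792) are neighbours, 7873 bases apart. Exons of 9 members overlap an annotated gene, in each case on the other strand, among them Degs2 with Evl, Smpd3 with Prmt7, Elovl1 with Cdc20 and Cers4 with Gm36956 and Vmn2r-ps89. The sources used here do not say whether counting used strand or how it treated overlaps. Reads there may have been counted for either gene or for neither, so the counts of these members are uncertain. Dsg1a shares sequence with its copies Dsg1b and Dsg1c, and its count is uncertain for that reason.

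Upstream sequence is shown for Elovl6, which lay high in lotion-treated skin, and for Degs2 and Tgm3, which lay low there. Each run is the longest stretch without an annotated exon of any gene, on either strand, within the 250 bases before the start. It reads 5′ to 3′ on the gene's strand (RefSeq, GRCm38.p6). The last base shown lies 130 bases before the start for Elovl6, 10 for Degs2 and 1 for Tgm3. Bases nearer the start are not shown. Elovl6 is shown from chr3:129532136-129532256 (plus strand), Degs2 from chr12:108702316-108702556 (minus strand) and Tgm3 from chr2:130012090-130012339 (plus strand).
Elovl6: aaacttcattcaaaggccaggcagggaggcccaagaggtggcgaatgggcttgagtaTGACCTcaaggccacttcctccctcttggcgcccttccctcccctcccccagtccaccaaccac
Degs2: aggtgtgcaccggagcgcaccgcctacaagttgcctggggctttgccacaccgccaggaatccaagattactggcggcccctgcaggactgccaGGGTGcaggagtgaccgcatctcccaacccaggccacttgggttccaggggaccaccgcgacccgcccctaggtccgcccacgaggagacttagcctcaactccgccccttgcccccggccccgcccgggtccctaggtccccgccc
Tgm3: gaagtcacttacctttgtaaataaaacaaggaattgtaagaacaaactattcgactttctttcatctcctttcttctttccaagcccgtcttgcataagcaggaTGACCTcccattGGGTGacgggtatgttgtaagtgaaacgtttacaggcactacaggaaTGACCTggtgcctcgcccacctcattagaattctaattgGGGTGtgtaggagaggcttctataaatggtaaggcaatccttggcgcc
Capitals mark matches, on either strand, to CACCC (a Kruppel-like motif) or AGGTCA (the core of nuclear receptor sites). In the 250 bases before the start, the RefSeq table held 32 promoters of 29 members. CACCC occurred in 21 of these 32 promoters (65.6%) and in 52.0% of all 32851 promoters of the table. AGGTCA occurred in 7 of 32 (21.9%), against 14.0% of all. TGANTCA, the AP-1 motif, and AACNGGTT, a grainyhead-like motif, occurred in 0 of 32, against 6.75% and 1.79% of all promoters. In the 3 promoters shown no matches overlapped each other. Cers4, the member with the highest IMQ+VEH fold change to IMQ, had 0 matches to these motifs and is not shown.

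Levels were compared between genes on the deposited FPKM scale (fragments scaled to transcript length and library depth). Fabp5, which codes for the epidermal fatty acid binding protein, was the most abundant member, at 2752 FPKM in IMQ+IDMF, 2820 and 3328 in IMQ+VEH replicates 1 and 2, and 5833 in IMQ. Next came Asprv1, an aspartic protease of the granular layer, at 2246 FPKM in IMQ+IDMF, 2230 and 2986 in IMQ+VEH and 3522 in IMQ. The order below these was Casp14, Elovl4 and Cdsn by mean FPKM. Cers6, a ceramide synthase for shorter acyl chains, was lowest at 1.01 FPKM in IMQ+IDMF, 1.26 and 0.709 in IMQ+VEH and 1.24 in IMQ. The other 34 members lay between the 72.2 and 99.9 percentiles of all tested genes in every library, and the lowest count of any member was 76. Within ceramide synthesis Degs1 had the highest mean FPKM, and within the lipoxygenase path Alox12b had.

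**Figure D1:**
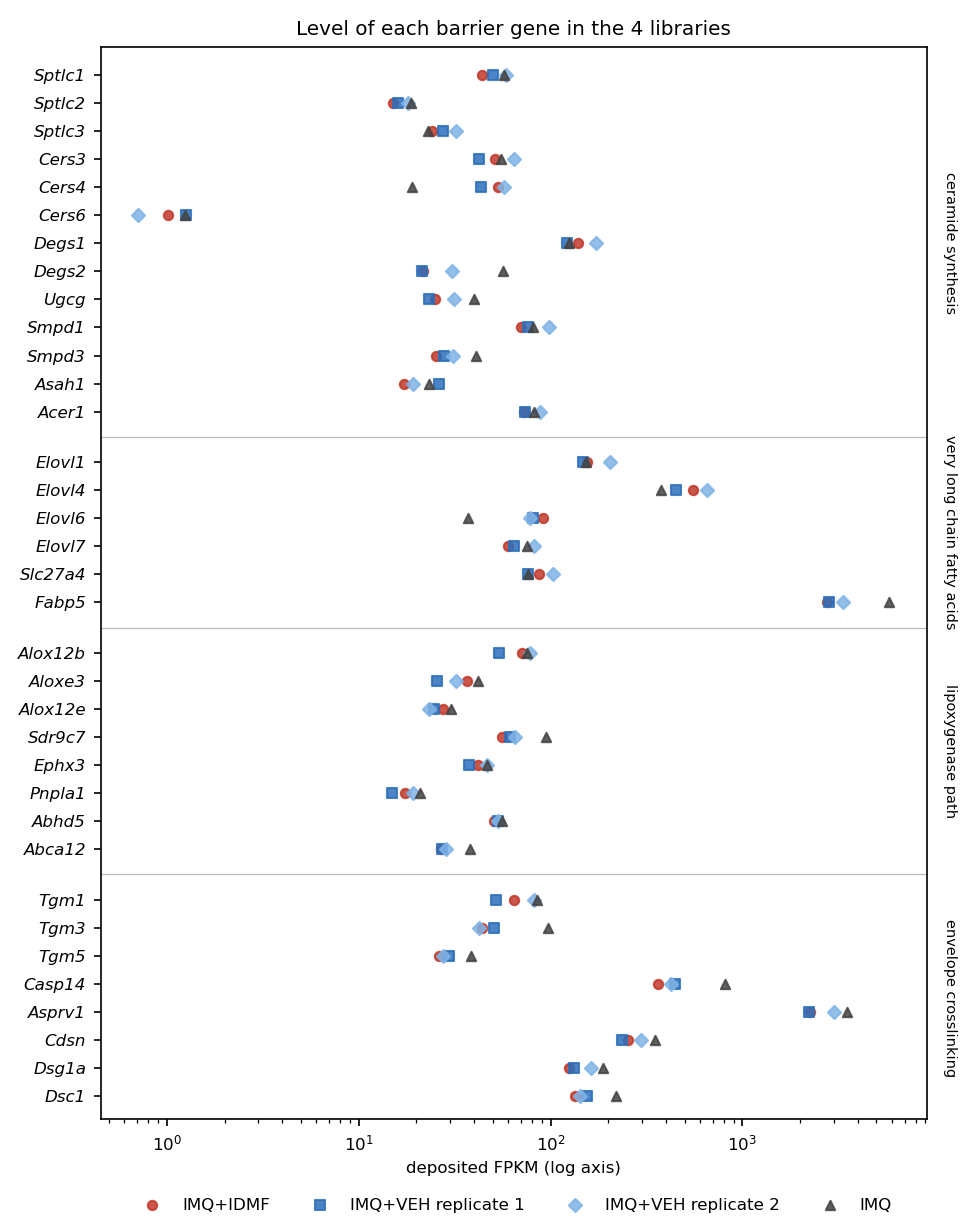
Deposited FPKM (log axis) of each of the 35 barrier genes in the IMQ+IDMF library, the 2 IMQ+VEH libraries and the IMQ library, in 4 subgroups. Fabp5 and Asprv1 are the highest in every library, while Cers6 lies near 1 FPKM.

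Library totals were 21167149 to 26639628 counts, and 15068 genes passed the filter on low counts and were tested, all 35 members among them. Values per library below are CPM (each count over the library total as scaled by edgeR's TMM factors), and differences are on the log2 CPM scale with a prior count of 2. The epidermal markers Krt5, Krt14, Krt1 and Krt10 were abundant in all 4 libraries, from 3727 CPM for Krt5 in IMQ+VEH replicate 1 upward. The IMQ+VEH pair differed for these genes: 32 of 35 members were higher in replicate 2 than in replicate 1, by a median of 0.42, where 47% of all tested genes were higher. The pair's differences ran from -0.70 for Cers6 to 0.79 for Tgm1. Pan-keratinocyte markers were also higher in replicate 2, 10 of 10 by a median of 0.34, and fibroblast markers were lower, 8 of 8 by a median of -1.06. Their part in the members' difference was not tested, and in bulk skin fewer cells of a type and less RNA per cell cannot be told apart. The sequencing core numbered replicate 2 apart from the other 3 libraries. The sources used here do not say whether it was a batch of its own, so counts are also given against the single replicates.

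IMQ+IDMF against IMQ+VEH sets the compound against its own lotion. No barrier gene passed the test: 0 of 35 members were called by edgeR's quasi-likelihood test, where 0 of 15068 genes were called in all (0%). At an unadjusted p under 0.05 there were 0 members and 306 genes (2.03%), and DESeq2 called 0 genes too, while edgeR with no filter on low counts called 16 of 17527 genes (0.0913%) and 0 members. Fitted log2 fold changes of the members ran from -0.35 for Asah1 to 0.37 for Aloxe3, with standard errors (SE) of 0.26 to 0.73 and an adjusted p of 1 for each. IMQ+IDMF lay below both IMQ+VEH libraries for 10 of 35 members and above both for 3, where 27.5% of all genes lay below both and 27.7% above both. For the other 22 members it lay between the replicates. The members' median was -0.08, beside -0.01 over all genes tested. Set against replicate 1 alone, 23 of 35 members were higher in IMQ+IDMF (median 0.08), and against replicate 2 alone 30 of 35 were lower (median -0.26). Of all 15068 genes, 7466 were higher than in replicate 1 and 7443 lower than in replicate 2. The direction of the list thus depended on which IMQ+VEH library was used.

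IMQ+VEH against IMQ sets the lotion without compound against no lotion. Most members were lower in the IMQ+VEH libraries than in the single IMQ library. For 22 of 35 both IMQ+VEH libraries lay below IMQ and for 4 both lay above it, where 35% of all genes were below and 33.6% above. Each of these counts rests on that 1 IMQ library, and the members are not replicates of the lotion. The median log2 fold change was -0.37, beside 0.00 over all genes tested. Cers4 and Elovl6 were higher and Degs2, Tgm3, Fabp5 and Casp14 lower, each by about 1 or more on the log2 scale. No member passed the threshold in edgeR, where 100 of 15068 genes did (0.664%, 51 higher and 49 lower), and the smallest adjusted p of a member was 0.125 for Degs2. At an unadjusted p under 0.05 there were 5 members (Cers4, Degs2, Elovl6, Aloxe3 and Tgm3), against 8.81% of all genes. DESeq2 called Cers4 and Tgm3, with adjusted p of 0.0173 and 0.0243, among 200 of 13449 genes (1.49%), and edgeR with no filter called Cers4, Degs2 and Tgm3 among 424 of 17527 genes (2.42%). The p-values of DESeq2 and of the fit with no filter took each gene's spread as known, unlike those of the main fit. Without replicate 2, 30 of 35 members lay below IMQ (median -0.54), and without replicate 1 it was 23 of 35 (median -0.14). Of all 15068 genes, 7792 lay below IMQ in replicate 1 and 7490 in replicate 2. Both comparisons rest on the spread of the same IMQ+VEH pair and share its libraries.

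**Figure D2:**
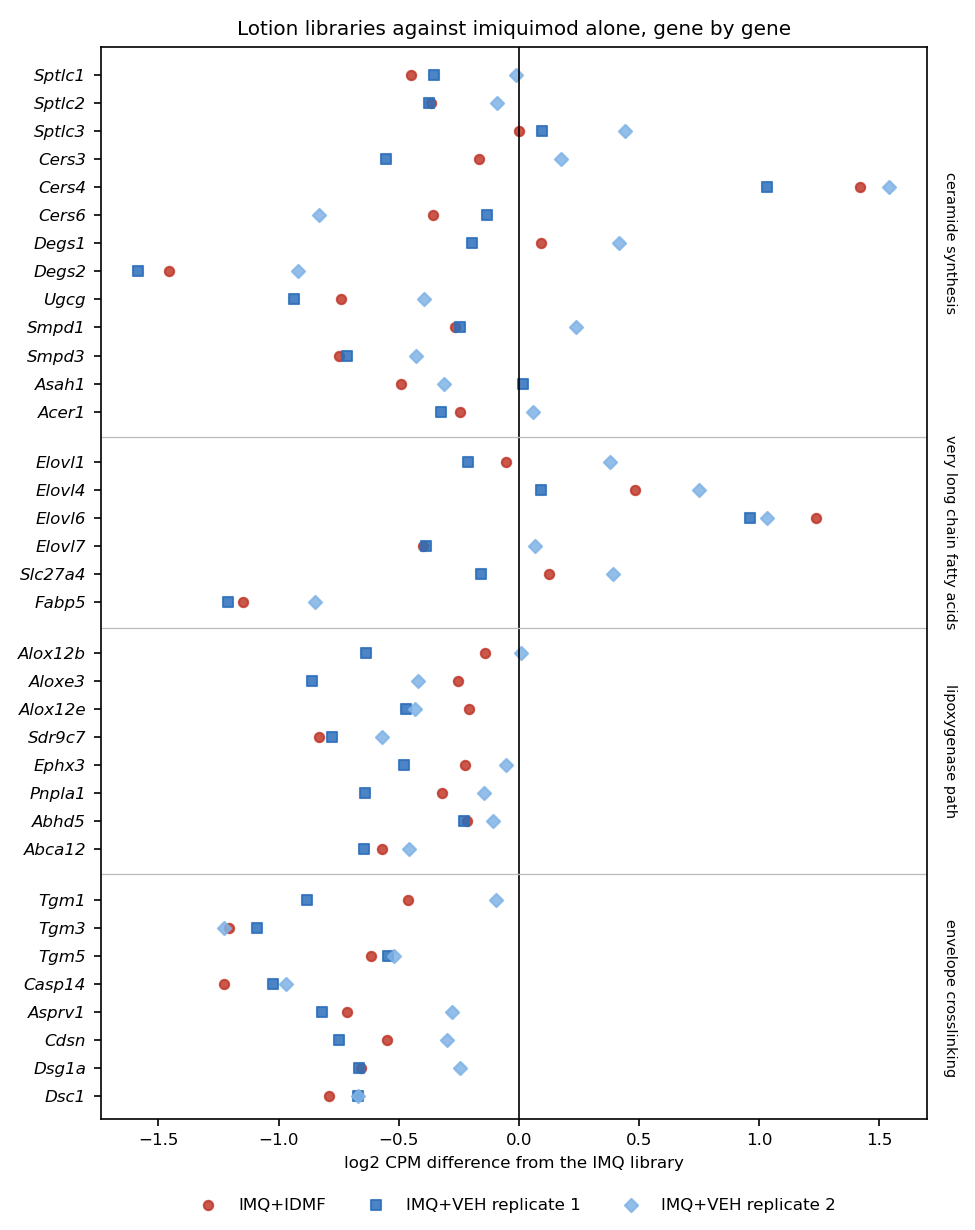
Difference in log2 CPM from the single IMQ library for each barrier gene in the IMQ+IDMF library and the 2 IMQ+VEH libraries. Cers4 and Elovl6 lie to the right of 0 in all 3 lotion libraries, and all 8 envelope crosslinking genes lie to its left.

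Sphingoid bases are made by serine palmitoyltransferase, of which Sptlc1 is the common subunit and Sptlc2 and Sptlc3 are alternative catalytic subunits. Sptlc1 had 143 CPM in IMQ+IDMF, 153 and 194 CPM in IMQ+VEH replicates 1 and 2, and 195 CPM in IMQ. Sptlc3 had 85.2 CPM in IMQ+IDMF, 91.2 and 116 CPM in IMQ+VEH and 85.2 CPM in IMQ. IMQ+IDMF was the lowest library for Sptlc1, and both of its fold changes to IMQ+VEH were -0.28 (SE 0.30 for Sptlc1 and 0.28 for Sptlc3). Sptlc2 had 74.2 CPM in IMQ+IDMF, 73.7 and 89.7 CPM in IMQ+VEH and 95.6 CPM in IMQ. Against IMQ, the IMQ+VEH fold changes were -0.17 (SE 0.30) for Sptlc1, -0.23 (SE 0.27) for Sptlc2 and 0.28 (SE 0.28) for Sptlc3. Of these subunits Sptlc3 was the only one above IMQ in both IMQ+VEH libraries.

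Ceramide synthases attach the fatty acid, and they differ in the chain length they use. Cers4, which uses long chains, had 255 CPM in IMQ+IDMF, 195 and 277 CPM in IMQ+VEH replicates 1 and 2, and 95.2 CPM in IMQ. All 3 lotion libraries were above IMQ, and IMQ+IDMF lay between the IMQ+VEH libraries. IMQ+VEH was 2.48-fold IMQ (log2 fold change 1.31, SE 0.35, adjusted p = 0.165), the highest fold change of any member, while IMQ+IDMF had 0.11 (SE 0.32) to IMQ+VEH. Under 7 other settings the adjusted p of the lotion difference ran from 0.0115 to 0.167, with DESeq2 and an edgeR fit with no filter calling it. Cers3, the synthase for the ultra long chains of barrier ceramides, showed no such order. It had 217 CPM in IMQ+IDMF, 166 and 275 CPM in IMQ+VEH and 243 CPM in IMQ, so that IMQ lay inside the IMQ+VEH pair (log2 fold change -0.14, SE 0.35). Cers6 had 5.19 CPM in IMQ+IDMF, 6.06 and 3.71 CPM in IMQ+VEH and 6.66 CPM in IMQ (-0.44, SE 0.51).

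Desaturases finish the ceramide backbone: Degs1 places the double bond, and Degs2 also adds a hydroxyl group that gives phytoceramide. Degs2 had 33.0 CPM in IMQ+IDMF, 30.2 and 47.9 CPM in IMQ+VEH, and 90.7 CPM in IMQ. Every lotion library was at a lower level than IMQ, and IMQ+IDMF again lay between the IMQ+VEH libraries. IMQ+VEH was 0.43-fold IMQ (log2 fold change -1.22, SE 0.30, adjusted p = 0.125, and 0.00156 to 0.16 under 7 other settings, of which the fit with no filter called it). IMQ+IDMF had -0.24 (SE 0.31) to IMQ+VEH. Degs1 had 347 CPM in IMQ+IDMF, 284 and 435 CPM in IMQ+VEH and 326 CPM in IMQ, so its groups overlapped.

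Ceramide is then converted, stored and recovered. Ugcg, the glucosylceramide synthase, had 121 CPM in IMQ+IDMF, 106 and 154 CPM in IMQ+VEH and 202 CPM in IMQ. Smpd3, a neutral sphingomyelinase, had 173 CPM in IMQ+IDMF, 177 and 216 CPM in IMQ+VEH and 291 CPM in IMQ. For both genes IMQ was the highest library, with IMQ+VEH fold changes to IMQ of -0.64 (SE 0.30) for Ugcg and -0.56 (SE 0.31) for Smpd3. Smpd1, the acid sphingomyelinase, had 213 CPM in IMQ+IDMF, 217 and 303 CPM in IMQ+VEH and 257 CPM in IMQ. Acer1, the alkaline ceramidase of epidermis, had 223 CPM in IMQ+IDMF, 211 and 276 CPM in IMQ+VEH and 265 CPM in IMQ. IMQ lay inside the IMQ+VEH pair for Smpd1 and Acer1. Asah1, the lysosomal acid ceramidase, had 48.7 CPM in IMQ+IDMF, 69.2 and 55.1 CPM in IMQ+VEH and 68.3 CPM in IMQ. Its fold change of IMQ+IDMF to IMQ+VEH was the lowest of all members (-0.35, SE 0.28), with differences of -0.51 to replicate 1 and -0.18 to replicate 2. Of the 13 ceramide synthesis genes, IMQ+IDMF was below both IMQ+VEH libraries for 5 and above both for 0, where the shares of all genes were 27.5% and 27.7%. IMQ+IDMF was above replicate 1 for 7 of the 13 and below replicate 2 for 12, where it was so for 7466 and 7443 of all 15068 genes. Both IMQ+VEH libraries lay below IMQ for 6 of the 13 and above it for 2 (35% and 33.6% of all genes), with a median of -0.14.

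Elongases lengthen the fatty acids that ceramides carry. Elovl6, which extends palmitate to stearate, had 725 CPM in IMQ+IDMF, 599 and 629 CPM in IMQ+VEH replicates 1 and 2, and 307 CPM in IMQ. IMQ+IDMF was the highest library and IMQ the lowest, and the IMQ+VEH pair differed by 0.07. The IMQ+VEH fold change to IMQ was 1.00 (SE 0.40, adjusted p = 0.466, and 0.0712 to 0.499 under 7 other settings), and the IMQ+IDMF fold change to IMQ+VEH was 0.24 (SE 0.38). Elovl4, which makes the ultra long chains, had 2175 CPM in IMQ+IDMF, 1655 and 2612 CPM in IMQ+VEH and 1553 CPM in IMQ. IMQ was the lowest library here too, but replicate 1 lay above it by only 0.09 (fold change 0.46, SE 0.58). Elovl1 had 342 CPM in IMQ+IDMF, 306 and 462 CPM in IMQ+VEH and 355 CPM in IMQ, and Elovl7 had 434 CPM in IMQ+IDMF, 438 and 600 CPM in IMQ+VEH and 572 CPM in IMQ. These elongases had groups that overlapped between IMQ+VEH and IMQ.

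Fatty acids are taken up and carried by Slc27a4, a transporter that also activates them, and Fabp5. Slc27a4 had 456 CPM in IMQ+IDMF, 375 and 548 CPM in IMQ+VEH and 418 CPM in IMQ, with overlapping groups. Fabp5 had 2843 CPM in IMQ+IDMF, 2728 and 3499 CPM in IMQ+VEH, and 6305 CPM in IMQ. The lotion libraries all lay below IMQ for Fabp5 (IMQ+VEH to IMQ -1.02, SE 0.64, adjusted p = 0.771, and 0.0947 to 0.79 under 7 other settings). Its IMQ+IDMF fold change to IMQ+VEH was -0.13 (SE 0.67). Of the 6 very long chain fatty acid genes, both IMQ+VEH libraries lay above IMQ for 2 and below it for 1, with a median of 0.13, where the shares of all genes were 33.6% and 35%. IMQ+IDMF lay above both IMQ+VEH libraries for 1 and below both for 1.

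In the lipoxygenase path, IMQ was above both IMQ+VEH libraries for 7 of 8 genes, where both IMQ+VEH libraries lay below IMQ for 35% of all genes. The median fold change of IMQ+VEH against IMQ was -0.41. It was -0.64 without replicate 2, -0.28 without replicate 1, and -0.070 less the median difference of pan-keratinocyte markers. The exception was Alox12b, the R-type lipoxygenase that oxidises acylceramide, at 211 CPM in IMQ+IDMF, 150 and 234 CPM in IMQ+VEH and 232 CPM in IMQ. Aloxe3, which acts on the product of Alox12b, had 118 CPM in IMQ+IDMF, 77.2 and 105 CPM in IMQ+VEH, and 140 CPM in IMQ. Alox12e, a lipoxygenase of mouse epidermis, had 80.0 CPM in IMQ+IDMF, 66.7 and 68.5 CPM in IMQ+VEH and 92.4 CPM in IMQ. For Aloxe3 and Alox12e the IMQ+IDMF library lay between IMQ+VEH and IMQ. Together with Elovl6 these were the members above both IMQ+VEH libraries, with IMQ+IDMF fold changes to IMQ+VEH of 0.37 (SE 0.28) for Aloxe3 and 0.24 (SE 0.26) for Alox12e. IMQ+VEH fold changes to IMQ were -0.62 (SE 0.28, adjusted p = 0.549) for Aloxe3 and -0.45 (SE 0.25, adjusted p = 0.707) for Alox12e.

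Sdr9c7, a dehydrogenase that acts on the oxidised ceramide, had 202 CPM in IMQ+IDMF, 210 and 243 CPM in IMQ+VEH, and 360 CPM in IMQ. Abca12, the transporter that loads lipid into lamellar granules, had 301 CPM in IMQ+IDMF, 285 and 325 CPM in IMQ+VEH and 447 CPM in IMQ. For both, the 3 lotion libraries lay close together below IMQ, with IMQ+VEH fold changes to IMQ of -0.67 (SE 0.31) for Sdr9c7 and -0.55 (SE 0.33) for Abca12. Ephx3, an epoxide hydrolase, had 130 CPM in IMQ+IDMF, 109 and 147 CPM in IMQ+VEH and 152 CPM in IMQ. Pnpla1, which transfers linoleic acid onto ceramide, had 103 CPM in IMQ+IDMF, 82.0 and 116 CPM in IMQ+VEH and 128 CPM in IMQ. Abhd5, a cofactor of Pnpla1, had 205 CPM in IMQ+IDMF, 203 and 221 CPM in IMQ+VEH and 238 CPM in IMQ. Replicate 2 lay at most 0.14 below IMQ for these genes, and the IMQ+VEH fold changes to IMQ were -0.25 (SE 0.29) for Ephx3, -0.37 (SE 0.29) for Pnpla1 and -0.17 (SE 0.30) for Abhd5.

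For all 8 envelope crosslinking genes both IMQ+VEH libraries lay below IMQ, as they did for 35% of all genes. The median fold change was -0.53, and -0.19 less the median difference of pan-keratinocyte markers. Tgm3, a transglutaminase that crosslinks envelope and hair proteins, had 238 CPM in IMQ+IDMF, 258 and 235 CPM in IMQ+VEH replicates 1 and 2, and 550 CPM in IMQ. The lotion libraries lay close together, and IMQ stood apart above them. IMQ+VEH was 0.448-fold IMQ (log2 fold change -1.16, SE 0.32, adjusted p = 0.191, and 0.0243 to 0.225 under 7 other settings, of which DESeq2 and the fit with no filter called it). IMQ+IDMF had -0.05 (SE 0.34) to IMQ+VEH. Tgm1, the membrane-bound transglutaminase, had 228 CPM in IMQ+IDMF, 171 and 294 CPM in IMQ+VEH and 314 CPM in IMQ (IMQ+VEH to IMQ -0.44, SE 0.36). Its pair difference of 0.79 was the largest of the members. Tgm5 had 84.0 CPM in IMQ+IDMF, 88.3 and 89.9 CPM in IMQ+VEH and 129 CPM in IMQ (-0.53, SE 0.26, adjusted p = 0.606).

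Casp14, a protease of cornifying cells that takes part in filaggrin breakdown, had 1064 CPM in IMQ+IDMF, 1227 and 1275 CPM in IMQ+VEH, and 2493 CPM in IMQ. IMQ+IDMF was the lowest library and IMQ the highest, with a pair difference of 0.06. The fold changes were -0.23 (SE 0.51) for IMQ+IDMF against IMQ+VEH and -0.99 (SE 0.49, adjusted p = 0.611, and 0.0761 to 0.614 under 7 other settings) for IMQ+VEH against IMQ. Asprv1 had 4113 CPM in IMQ+IDMF, 3824 and 5567 CPM in IMQ+VEH and 6751 CPM in IMQ (IMQ+VEH to IMQ -0.52, SE 0.71). Cdsn, the adhesive protein of cornified cell junctions, had 861 CPM in IMQ+IDMF, 749 and 1023 CPM in IMQ+VEH and 1258 CPM in IMQ (-0.51, SE 0.45). Both kept the order IMQ above replicate 2, then IMQ+IDMF, then replicate 1. Among the desmosomal cadherins, Dsg1a had 931 CPM in IMQ+IDMF, 927 and 1240 CPM in IMQ+VEH and 1469 CPM in IMQ (-0.44, SE 0.47). Dsc1 had 878 CPM in IMQ+IDMF, 955 and 956 CPM in IMQ+VEH and 1520 CPM in IMQ (-0.67, SE 0.45). For Dsc1 the pair was almost identical and IMQ+IDMF lay 0.12 below each library of it (-0.12, SE 0.46).

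**Figure D3:**
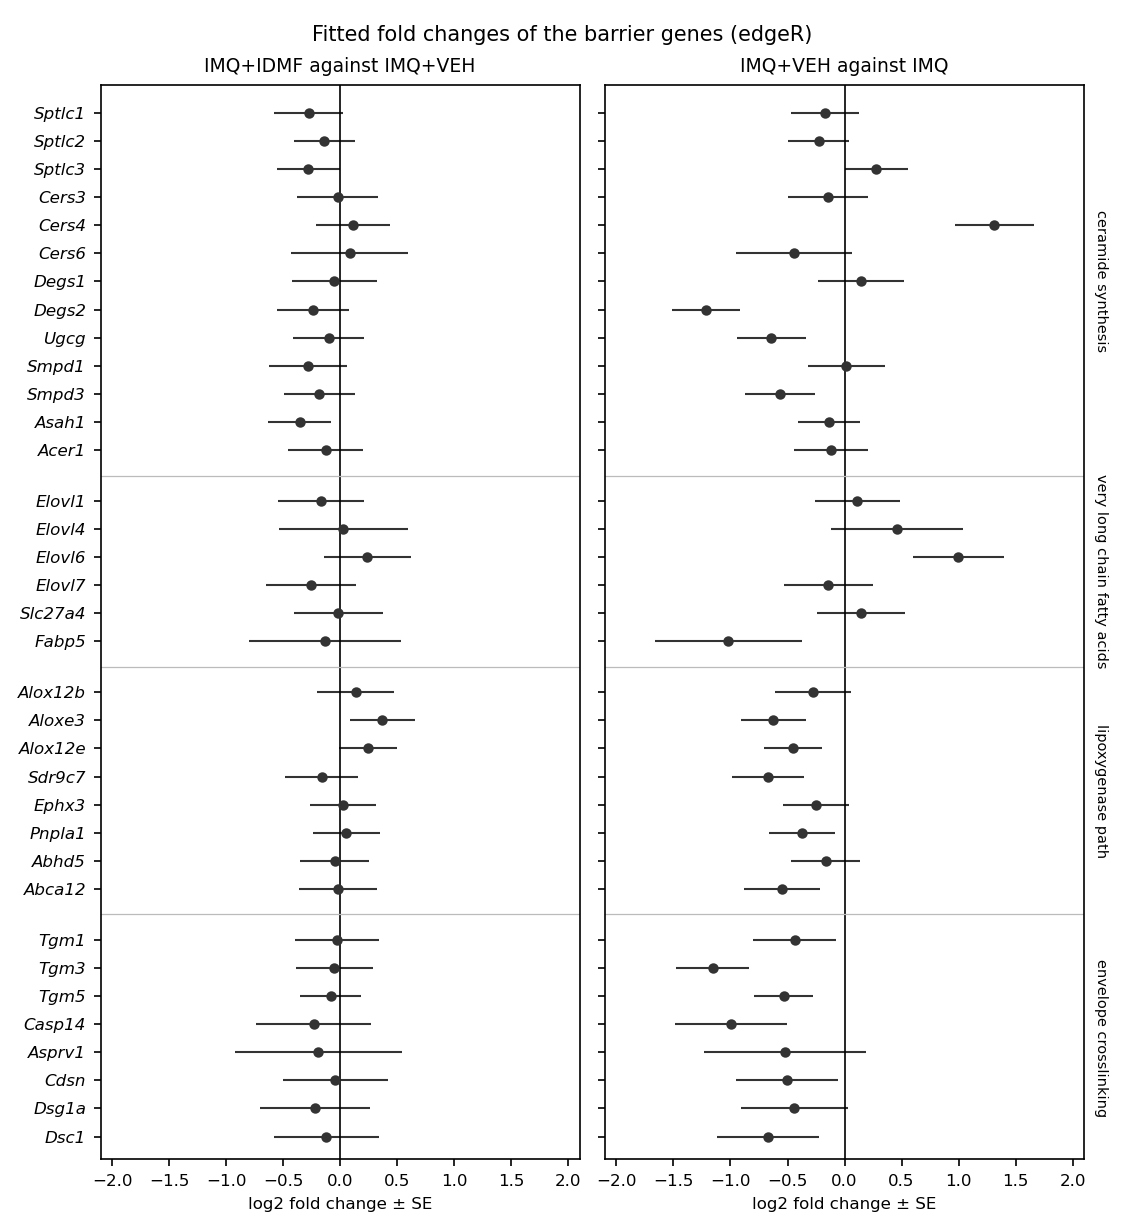
Fitted log2 fold change with its SE (edgeR, 4 libraries) of each barrier gene for IMQ+IDMF against IMQ+VEH (left) and IMQ+VEH against IMQ (right). On the left all values lie between -0.35 and 0.37. On the right they run from -1.22 for Degs2 to 1.31 for Cers4.

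IMQ+IDMF against IMQ is 1 library against 1 and has no replicate check. IMQ+IDMF was lower for 30 of 35 members, where it was lower for 49.8% of all genes, and the median difference was -0.36, beside 0.00 over all genes. More than 2-fold higher were Cers4 (1.42) and Elovl6 (1.24), against 6.78% of all genes. More than 2-fold lower were Degs2 (-1.45), Casp14 (-1.23), Tgm3 (-1.21) and Fabp5 (-1.15), against 4.51%. All 3 lotion libraries lay below IMQ for 22 members and above it for 3 (Cers4, Elovl4 and Elovl6), where the shares of all genes were 30.1% and 28.9%.

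Ratios between related enzymes within a library do not depend on library size, and the pairs below were chosen after their values were seen. On the FPKM scale, Cers4 over Cers3 was 1.03 in IMQ+IDMF, 1.03 and 0.889 in IMQ+VEH replicates 1 and 2, and 0.344 in IMQ. Degs2 over Degs1 was 0.156 in IMQ+IDMF, 0.174 and 0.178 in IMQ+VEH, and 0.449 in IMQ. For both ratios the 3 lotion libraries lay together and apart from IMQ. Tgm3 over Tgm1 was 0.679 in IMQ+IDMF, 0.982 and 0.518 in IMQ+VEH, and 1.13 in IMQ, with a wide IMQ+VEH pair. Elovl6 over Elovl4 was 0.165 in IMQ+IDMF, 0.180 and 0.120 in IMQ+VEH, and 0.0982 in IMQ. Asah1 over Acer1 was 0.237 in IMQ+IDMF, 0.356 and 0.217 in IMQ+VEH, and 0.281 in IMQ, so that IMQ lay inside the pair.

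**Figure D4:**
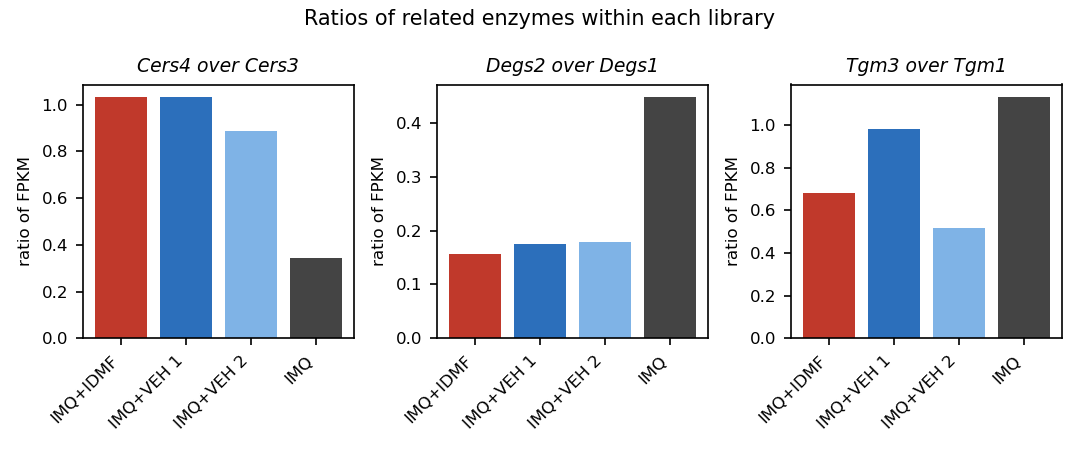
Ratio of FPKM between related enzymes within each library, from left to right the IMQ+IDMF library, IMQ+VEH replicates 1 and 2, and IMQ. Cers4 over Cers3 is 0.344 in IMQ and 0.889 to 1.03 in the lotion libraries, and Degs2 over Degs1 is 0.449 in IMQ and 0.156 to 0.178 in the lotion libraries.

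Further genes of these pathways were read from 4 lists. None was called between IMQ+IDMF and IMQ+VEH: 0 of 19 tested sphingolipid genes, 0 of 16 elongation and transport genes, 0 of 11 lipoxygenase and lipase genes and 0 of 23 envelope genes. Between IMQ+VEH and IMQ, 1 gene of the 4 lists was called higher and 1 lower, where 0.338% and 0.325% of all genes were. Alox8, an S-type lipoxygenase of mouse skin that lies 14139 bases beyond Alox12b on chromosome 11 (69183932 to 69197843), fell. It had 13.8 CPM in IMQ+IDMF, 19.7 and 14.4 CPM in IMQ+VEH, and 55.6 CPM in IMQ (IMQ+VEH to IMQ -1.70, SE 0.30, adjusted p = 0.0248). With total counts as the scale the adjusted p was 0.0764, and over 7 other settings it ran from 9.32e-06 to that value. Pnpla2, the triglyceride lipase that Abhd5 also activates, rose. It had 201 CPM in IMQ+IDMF, 236 and 146 CPM in IMQ+VEH, and 52.4 CPM in IMQ (1.87, SE 0.36, adjusted p = 0.0409). With the 3 lotion libraries as 1 group its adjusted p was 0.0698, the highest of 7 other settings, and the lowest was 1.50e-05.

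Of the elongation and transport list, 13 of 16 genes were above IMQ in both IMQ+VEH libraries, with a median of 0.55, and 1 was below, where 33.6% and 35% of all genes were. Elovl3, an elongase of sebaceous gland and brown fat, had 385 CPM in IMQ+IDMF, 287 and 455 CPM in IMQ+VEH, and 118 CPM in IMQ (IMQ+VEH to IMQ 1.65, SE 0.40, adjusted p = 0.119, and 0.00102 to 0.141 under 7 other settings). Slc27a2, a fatty acid transporter, had 14 counts in IMQ+IDMF, 12 and 8 in IMQ+VEH and 2 in IMQ, too few for an order. Of the sphingolipid list, 4 of 19 were above and 6 below IMQ in both, and both of the further ceramide synthases tested, Cers2 and Cers5, had IMQ as their lowest library. Cers2 had 27.1 CPM in IMQ+IDMF, 36.1 and 27.1 CPM in IMQ+VEH and 16.3 CPM in IMQ (0.96, SE 0.32, adjusted p = 0.338). Cers5 had 91.1 CPM in IMQ+IDMF, 71.5 and 105 CPM in IMQ+VEH and 48.6 CPM in IMQ (0.86, SE 0.30, adjusted p = 0.365). Of the envelope list, 18 of 23 were below and 1 above IMQ in both. That 1 gene was Tgm2, the tissue transglutaminase, at 135 CPM in IMQ+IDMF, 154 and 132 CPM in IMQ+VEH and 64.4 CPM in IMQ (1.15, SE 0.29, adjusted p = 0.14, and 0.0158 to 0.135 under 7 other settings). Rptn, which codes for the envelope protein repetin, had 651 CPM in IMQ+IDMF, 805 and 782 CPM in IMQ+VEH and 2012 CPM in IMQ (-1.34, SE 0.44, adjusted p = 0.31, and 0.00211 to 0.325 under 7 other settings). Flg was not analysed here.

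Between IMQ+IDMF and IMQ+VEH the genes of these lists farthest outside the pair had small or noisy differences. Acer3, another alkaline ceramidase, had a fold change of 0.27 (SE 0.28), Ormdl2, a regulator of serine palmitoyltransferase, 0.19 (SE 0.29) and the elongase Elovl5 0.20 (SE 0.27). The lipase gene Pnpla3 had -0.58 (SE 0.28) and the desmosomal cadherin gene Dsg3 0.48 (SE 0.29). Rptn had -0.29 (SE 0.46). Alox15 had 5 counts in IMQ+IDMF, 10 and 9 in IMQ+VEH and 8 in IMQ.

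Marker lists of cell types also differed between IMQ+VEH and IMQ. Of all tested genes, 33.6% were above IMQ in both IMQ+VEH libraries and 35% below it, and 0.338% were called higher and 0.325% lower. For 9 of 10 pan-keratinocyte markers both IMQ+VEH libraries lay below IMQ, with a median of -0.34, close to the -0.37 of the barrier genes. Their summed level was 20323 CPM in IMQ+IDMF, 16731 and 20419 CPM in IMQ+VEH, and 26863 CPM in IMQ. With the median difference of these markers subtracted, an alternative added after seeing the data, the IMQ+VEH to IMQ median of the members was -0.042, while that of ceramide synthesis was 0.17 and that of the very long chain fatty acid genes 0.45. With each library instead centred on the median log2 CPM level of the markers, the median of the members was -0.13, that of the envelope genes -0.27, that of the lipoxygenase path -0.15 and that of ceramide synthesis 0.08. Sebaceous gland markers, of a gland that also makes long fatty acids, were above IMQ in both for 8 of 8 genes (median 1.06, 1 called), at a sum of 1331 CPM in IMQ+IDMF, 1022 and 1443 CPM in IMQ+VEH and 566 CPM in IMQ. Adipocyte markers were above for 7 of 7 (median 2.14, 4 called), at 2561 CPM in IMQ+IDMF, 3462 and 2405 CPM in IMQ+VEH and 744 CPM in IMQ. Hair follicle markers were below for 8 of 8 (median difference -4.10 for replicate 1 and -3.68 for replicate 2, 4 called), at 27.5 CPM in IMQ+IDMF, 9.45 and 8.83 CPM in IMQ+VEH and 80.8 CPM in IMQ, with Krt85 at 0 counts in both IMQ+VEH libraries and Krt35 at 0 in replicate 2. No other marker in the files was at 0 in any library. Fibroblast and endothelial markers were above IMQ in both for 6 of 8 genes each (medians 1.15 and 0.80), upper epidermis markers below for 5 of 10 (-0.28), myeloid markers above for 1 and below for 2 of 8 (-0.08), and T and NK markers above for 2 and below for 2 of 7 (0.08). Some marker lists share genes with the further pathway lists above and are not separate from them. Elovl3 is also a sebaceous gland marker, and Krt1, Krt10, Flg2, Hrnr, Lor and Ivl of the envelope list are also upper epidermis markers. The part of the cell types in the levels of Cers4, Elovl6, Pnpla2, Tgm3 and the other members was not tested.

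Between IMQ+IDMF and IMQ+VEH, fibroblast markers lay below both IMQ+VEH libraries for 8 of 8 genes (median -1.13) and myeloid markers for 8 of 8 (-1.05), with 0 called. Of all tested genes, 27.5% lay below both and 27.7% above both, and 0% were called. Summed fibroblast markers were 2191 CPM in IMQ+IDMF, 6399 and 3333 CPM in IMQ+VEH, and 1718 CPM in IMQ. Summed myeloid markers were 265 CPM in IMQ+IDMF, 700 and 401 CPM in IMQ+VEH and 526 CPM in IMQ. Hair follicle markers lay above both for 8 of 8. Endothelial markers (median -0.16) and T and NK markers (-0.79) had 1 of 8 and 4 of 7 below both, and T and NK markers had 2 of 7 above both. Summed T and NK markers were low, at 6.31 CPM in IMQ+IDMF, 10.5 and 8.54 CPM in IMQ+VEH and 12.5 CPM in IMQ. Upper epidermis markers lay between the IMQ+VEH libraries for 10 of 10 genes, with a median of -0.02. Pan-keratinocyte markers lay above both for 3 of 10 (0.04), sebaceous gland markers above for 2 and below for 1 of 8 (0.04) and adipocyte markers below for 1 of 7 (-0.12). The part of these lists in the members' values was not tested.

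**Figure D5:**
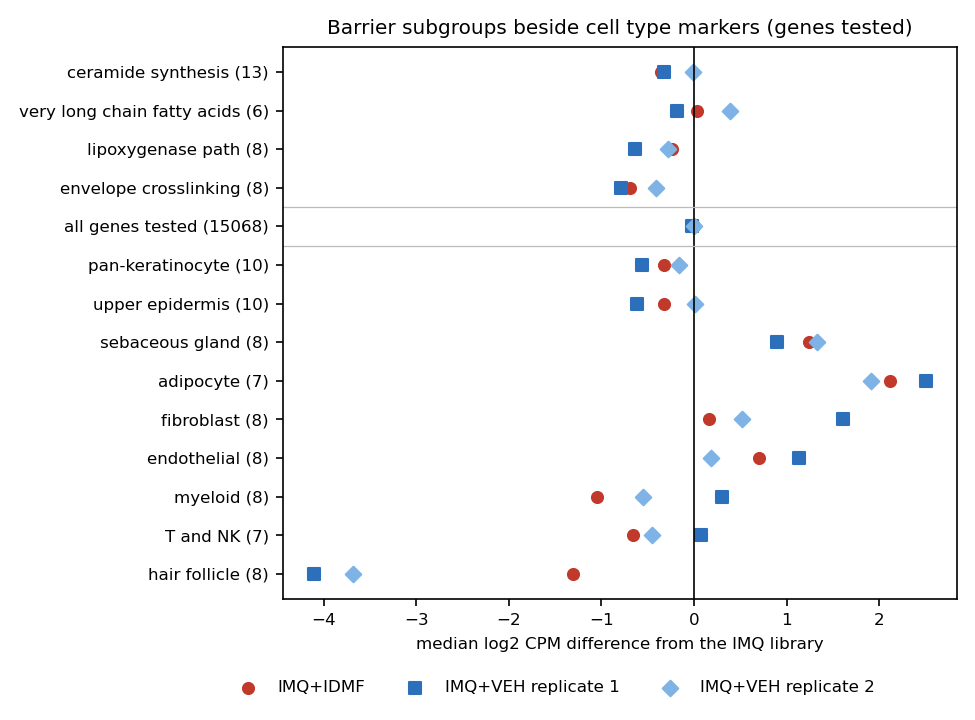
Median log2 CPM difference from the IMQ library of the 4 barrier subgroups, all 15068 tested genes and 9 cell type marker lists, in the IMQ+IDMF library and the 2 IMQ+VEH libraries, with the number of genes tested in brackets. Sebaceous gland, adipocyte, fibroblast and endothelial medians lie above 0 in all 3 lotion libraries. Pan-keratinocyte, hair follicle, ceramide synthesis, lipoxygenase path and envelope crosslinking medians lie below it.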

How the data were processed

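RNA from 4 skin libraries was read in single-end runs of 50 cycles, per the labels' protocols. For each library the authors deposited 1 table with a raw count and an FPKM value per gene symbol, per the file headers. TopHat2, Cufflinks, HTSeq, GRCm38 and mm10 are listed in the submitters' processing notes. The sources used here give no versions, annotation or strand setting. Tests used the deposited counts, in edgeR 4.0.16 with R 4.3.3 (a two-sided quasi-likelihood test after TMM scaling, with 1 mean per group). Genes were kept by filterByExpr (minimum count 10, minimum total 15). Benjamini-Hochberg adjustment ran over all 15068 genes, with a threshold of 0.05. The IMQ+VEH pair left 1 residual degree of freedom, beside 11.2 prior ones, and the single libraries were assumed to vary like that pair. The labels do not say whether the 2 IMQ+VEH libraries came from separate animals, so p-values measure only the spread between these libraries, which may be technical. Most of the spread used for a gene was pooled from genes of like abundance rather than taken from its own pair. Dsc1, with a pair difference of 0.0015, had an SE of 0.46 for IMQ+IDMF against IMQ+VEH and 0.45 for IMQ+VEH against IMQ. SE is the fold change over the square root of its F statistic. The code was tested on simulated data with less spread than these libraries and larger changes than the members had. That run does not show what could be detected here. The members and lists were chosen with earlier results of these data known. All members are given. By rule, those described most fully were members past the threshold and, per comparison and subgroup, the up to 4 whose smaller difference was largest among those with both differences to the IMQ+VEH pair, or of that pair to IMQ, in 1 direction. Of each further list it was up to 2. Positions come from GENCODE M21. Alternatives were DESeq2 1.42.0, other scalings, filters and groupings, a robust fit and leaving out each IMQ+VEH replicate.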

Additional observations from a re-analysis of the deposited data

How the results depend on the processing

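Precision was limited by the number of libraries: the IMQ+VEH pair alone gave the spread, largely pooled over genes, and an uncalled gene is not shown to be unchanged. No paired analysis was possible because IMQ+IDMF and IMQ have 1 library each, and without an IMQ+VEH replicate no residual degrees of freedom were left, so those values carry no test. With no filter on low counts, edgeR called 16 genes for IMQ+IDMF against IMQ+VEH (11 higher, 5 lower, 0 members) and 424 for IMQ+VEH against IMQ (310 higher, 114 lower). DESeq2 called 200 for IMQ+VEH against IMQ (139 higher, 61 lower), and the 3 lotion libraries as 1 group against IMQ gave 55 (20 higher, 35 lower). With DESeq2 and with no filter, p-values followed a normal distribution of fold change over SE, with no allowance for few degrees of freedom. For Degs2, edgeR with no filter gave an unadjusted p of 1.58e-05 at an SE of 0.28. The main edgeR fit gave 0.00149 at an SE of 0.30. The causes of the differences in calls were not tested. Member calls for IMQ+VEH against IMQ were 2 with DESeq2 (Cers4, Tgm3), 3 with no filter (Cers4, Degs2, Tgm3) and 0 otherwise. Of the 19, 16, 11 and 23 genes tested in the 4 further lists, 2 were called as reported, where 0.664% of all genes were. With DESeq2 it was 6 (1.49% of all genes) and with no filter 7 (2.42%). It was 1 each with total counts and with the lotion libraries as 1 group, settings for which no share of all genes is given here. For IMQ+VEH against IMQ, the lipoxygenase path median of -0.41 was -0.15 when centred on the median level of pan-keratinocyte markers, and -0.64 to -0.28 without a replicate. The envelope median of -0.53 was -0.27 when centred, and -0.78 to -0.41 without a replicate. Less the median difference of those markers, an alternative chosen after seeing the data, the medians of IMQ+VEH against IMQ were -0.042 for all 35, 0.17 for ceramide synthesis, -0.070 for the lipoxygenase path and -0.19 for the envelope genes. Counts of members against a single IMQ+VEH library, an alternative chosen after seeing the data, were 5 to 23 above and 12 to 30 below for IMQ+IDMF, against 3 and 10 for both libraries. For IMQ+VEH against IMQ they were 5 to 12 above, against 4, and 23 to 30 below, against 22. Of all 15068 genes, IMQ+IDMF lay above replicates 1 and 2 for 7466 and 7625, and below them for 7596 and 7443. Replicates 1 and 2 lay above IMQ for 7276 and 7570 genes and below it for 7792 and 7490. The named genes of IMQ+IDMF against IMQ+VEH kept their direction and stayed uncalled in 178 of 178 values. For IMQ+VEH against IMQ, 194 of 206 values kept direction and call, 10 gained a call, 2 lost one and 0 turned.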

Other observations

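Some barrier genes were nearly equal in the IMQ+VEH pair although most members differed there. Counted after their values were seen, 5 members had IMQ+IDMF outside the pair by more than the pair's own difference: Elovl6 and Alox12e above it, and Tgm5, Casp14 and Dsc1 below it. That is 5 of 35, where 23.5% of all tested genes did so. For IMQ against the pair there were 12 of 35, where 34.3% of all genes did so: Cers4, Degs2, Smpd3, Elovl6, Fabp5, Alox12e, Sdr9c7, Abca12, Tgm3, Tgm5, Casp14 and Dsc1. Both shares are below or near the background, so they say nothing particular about the members. Elovl6, Alox12e, Tgm5, Casp14 and Dsc1 are in both sets.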
